A study of Homo sapiens with 4 samples.

Results

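The extracellular matrix and adhesion genes described here encode collagen chains, laminin chains, numbered integrin chains and a set of matrix glycoproteins and matrix enzymes. Their RNA levels were measured in H9, an established line of human embryonic stem cells. Members were taken by platform symbol, as COL with a number and A, as LAMA, LAMB, LAMC, ITGA or ITGB with a number, or as FN1, SPARC, NID1, HSPG2, VTN, FKBP10, P4HA2, PLOD1, PLOD2, PLOD3, SERPINH1, LOX, LOXL2, HAS2 or HAS3, and had to be detected (a deposited detection p-value under 0.01) on at least 1 of 4 arrays. The platform held 92 such genes with 154 probes, and 48 of them with 62 probes were detected, among 10457 genes detected in the series as a whole. No difference between groups entered this choice, although a gene could pass through the array on which it was brightest. The symbols ITGB3BP, a centromere protein, and LAMB2P1, a pseudogene, matched by name only. Without them no count of members at least 1.5-fold apart changed.

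Total RNA of H9 cells kept in E8, a defined medium, on Matrigel-coated plates was hybridised to Illumina arrays after labelling as cRNA. Each of 4 groups had 1 array, all of cells collected on day 2. They were a high-density culture (over 90% confluence) in control medium, a high-density culture with 20 mM of added sodium bicarbonate, and low-density cultures (under 70% confluence) in control medium and with the same addition. The groups thus shared the cell line, the medium, the Matrigel coat, which is itself a basement membrane extract, and the day. With 1 array per group there was no replicate check, no test was run, and every difference below is a difference between arrays. In RNA from whole cultures, fewer cells of a type and less RNA per cell cannot be told apart.

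Collagens are triple helices of 3 chains that are hydroxylated and folded in the endoplasmic reticulum before they are secreted. Fibrillar collagens build the interstitial matrix, while collagen IV and the laminins, which are trimers of an alpha, a beta and a gamma chain, form the sheets of basement membranes. Integrins are pairs of an alpha and a beta chain that bind this matrix at the cell surface, and human embryonic stem cells grow attached to laminin-rich matrix through them.

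Between 39 and 46 of the 48 members were detected on each array, with the fewest at low density with bicarbonate, and 38 were detected on all 4. The number of all probes detected ran from 14128 at low density with bicarbonate to 15213 at high density with bicarbonate. Median intensity before normalization lay between 117.4 on the high-density bicarbonate array and 166.6 on the low-density control array. All 8 markers of pluripotent cells looked at, POU5F1, NANOG and SOX2 among them, were detected on every array, with a mean log2 level between 11.48 and 11.95. Of 10 genes listed for fibroblasts and mesenchyme 5 were detected, namely ACTA2, PDGFRB, S100A4, TAGLN and THY1. Being on this list does not make a gene particular to such cells. The summed log2 level of these 5 was 48.53 and 46.45 at high density (control, bicarbonate) against 43.91 and 43.92 at low density. THY1 had the highest level of them on every array, from 12.12 to 12.84. ACTA2, PDGFRB, S100A4 and THY1 read higher on both high-density arrays than on both low-density arrays, an order not counted over all genes. TAGLN at high density with bicarbonate (10.50) was below both low-density arrays (10.88 and 10.92). ACTA2 was not detected at low density with bicarbonate. DCN, LUM, PDGFRA, SNAI2 and TWIST1 of that list were not detected on any array. Of 7 endoderm markers only AFP and FOXA2 were detected, both on the low-density arrays and neither at high density, with sums of 10.42 and 10.33 against 16.7 and 18.29. The lists of other cell types gave 0 of 6 for mesoderm, NES alone of 5 for neuroectoderm, GCM1 and IGFBP3 of 7 for trophoblast, both at high density with bicarbonate only, and KDR and TEK of 6 for endothelium and blood. The part of such cells in the values below was not tested.

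The detection threshold left 44 genes under the rule without a detected probe. Fibronectin, FN1, which embryonic stem cells are known to use as an attachment protein, was among them, with 3 probes whose lowest detection p-value was 0.248, as were VTN, HSPG2 (perlecan), COL3A1, HAS2 and both oxidases that cross-link collagen, LOX and LOXL2. The nearest genes outside the threshold were ITGA2B and ITGA4 with lowest p-values of 0.0117 and 0.013, and the nearest inside were COL11A2 and LAMB2P1 at 0.0091. The remaining genes without a detected probe were COL10A1, COL12A1, COL13A1, COL14A1, COL15A1, COL19A1, COL20A1, COL21A1, COL22A1, COL24A1, COL25A1, COL27A1, COL28A1, COL4A3, COL4A4, COL5A3, COL6A4P1, COL6A4P2, COL6A5, COL6A6, COL8A1, ITGA1, ITGA10, ITGA11, ITGA8, ITGA9, ITGB3, ITGB4, ITGB6, ITGB7, ITGB8, LAMA2, LAMA4, LAMB3 and LAMB4. No detected probe says only that the signal was not well above background.

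**Figure D1:**
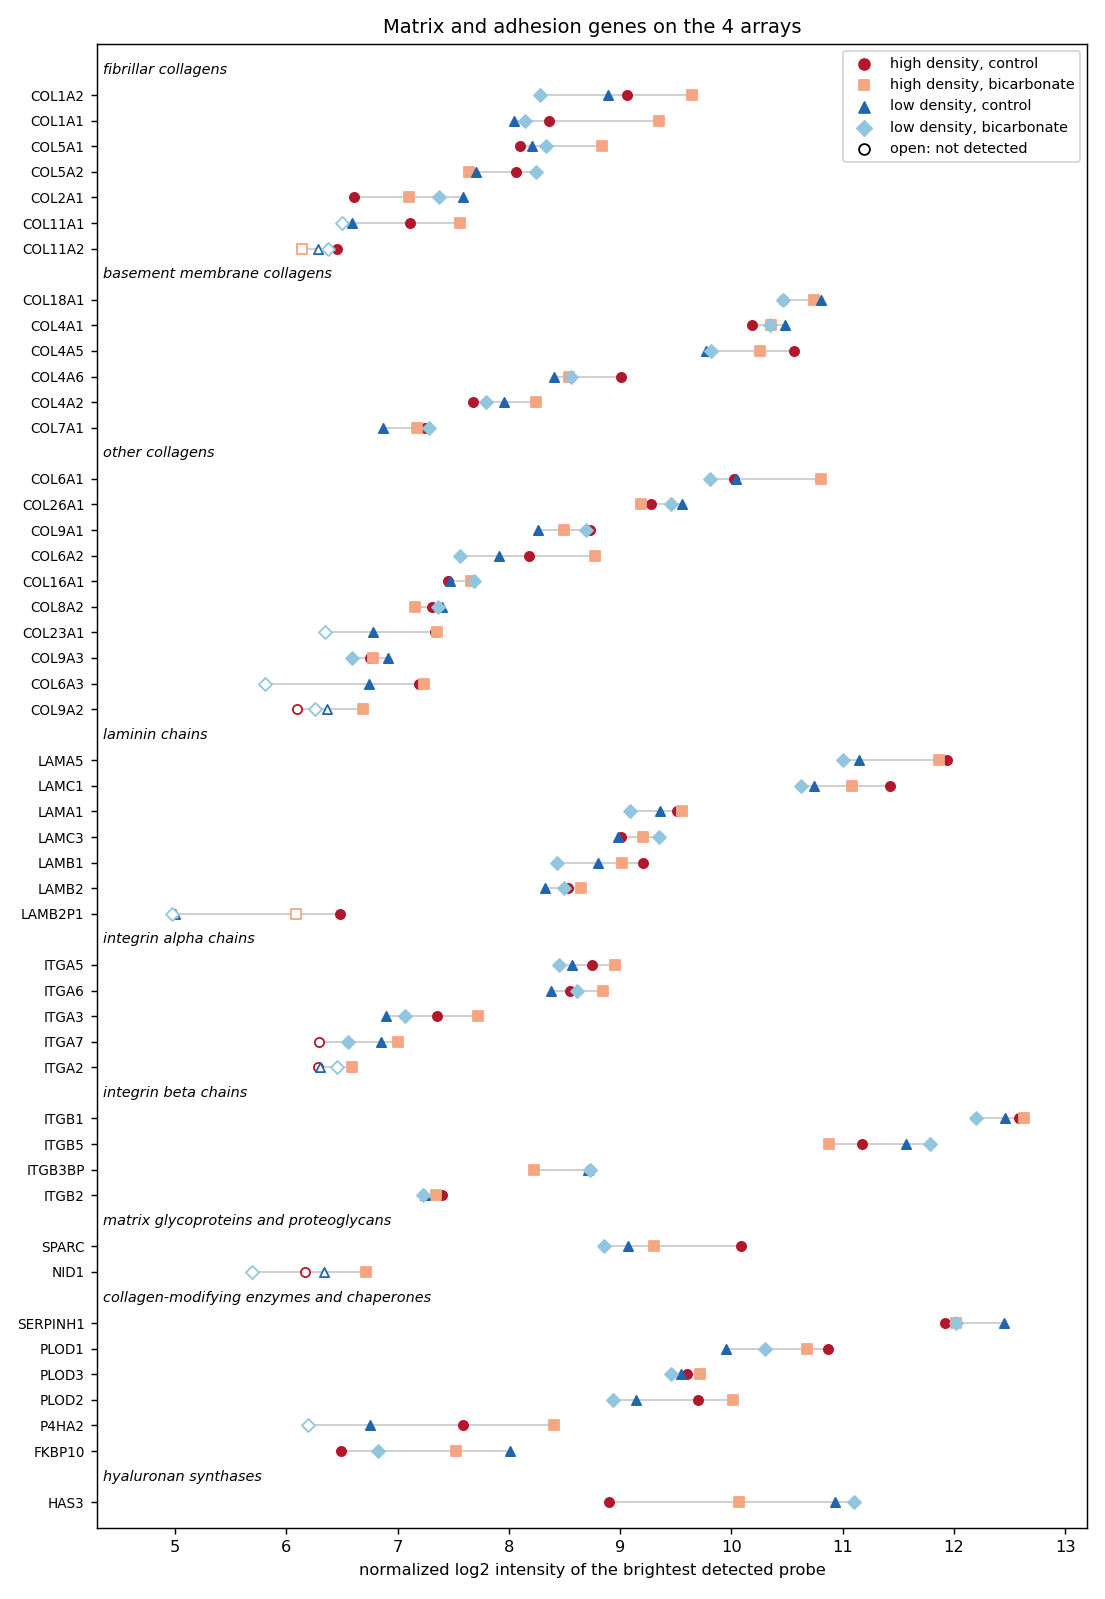
Normalized log2 intensity of the brightest detected probe of each of the 48 members (x axis) by role group (y axis), with 1 point per array and open symbols where the probe was not detected on that array. Among members detected on all 4 arrays HAS3 spans the widest range, from 8.90 at high density in control medium to 11.10 at low density with bicarbonate, and levels of different genes are not comparable because each has its own probe.

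The promoters of 5 members or pairs are shown because the results below turn on these genes: the collagen IV pairs because each pair is read in opposite directions from a shared stretch, and P4HA2, PLOD2 and HAS3 because their arrays lay far apart between densities. All are RefSeq sequences of build GRCh38.p14, taken from windows of 250 bases before to 50 bases after a gene's start, and coordinates count from 1. The first stretch, chr13:110307108-110307333 on the plus strand, is where the windows of COL4A1 (minus strand) and COL4A2 (plus strand) overlap, with starts 127 bases apart. The second, chrX:108439588-108439708 on the plus strand, is where those of COL4A6 (minus strand) and COL4A5 (plus strand) overlap, between starts 380 bases apart. The others are whole windows at chr5:132227042-132227341 on the minus strand (P4HA2), chr3:146161135-146161434 on the minus strand (PLOD2) and chr16:69107290-69107589 on the plus strand (HAS3). Capitals mark matches on either strand to ACGTG, the core of sites bound by hypoxia-inducible factors, to CCAAT, the core of NF-Y sites, and to GGGCGG, the core of Sp1 sites.
COL4A1/COL4A2: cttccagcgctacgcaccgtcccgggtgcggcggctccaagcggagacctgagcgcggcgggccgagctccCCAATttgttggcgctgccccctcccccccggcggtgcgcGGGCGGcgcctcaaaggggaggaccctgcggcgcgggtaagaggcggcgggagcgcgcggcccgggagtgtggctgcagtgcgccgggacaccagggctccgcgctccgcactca
COL4A6/COL4A5: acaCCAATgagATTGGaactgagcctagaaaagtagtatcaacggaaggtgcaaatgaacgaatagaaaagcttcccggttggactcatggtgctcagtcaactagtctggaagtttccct
P4HA2: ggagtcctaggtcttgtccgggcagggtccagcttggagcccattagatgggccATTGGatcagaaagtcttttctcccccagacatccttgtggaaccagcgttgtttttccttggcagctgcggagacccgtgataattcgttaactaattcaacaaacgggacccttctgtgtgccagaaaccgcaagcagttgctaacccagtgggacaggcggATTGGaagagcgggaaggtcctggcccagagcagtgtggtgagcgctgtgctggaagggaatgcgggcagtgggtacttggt
PLOD2: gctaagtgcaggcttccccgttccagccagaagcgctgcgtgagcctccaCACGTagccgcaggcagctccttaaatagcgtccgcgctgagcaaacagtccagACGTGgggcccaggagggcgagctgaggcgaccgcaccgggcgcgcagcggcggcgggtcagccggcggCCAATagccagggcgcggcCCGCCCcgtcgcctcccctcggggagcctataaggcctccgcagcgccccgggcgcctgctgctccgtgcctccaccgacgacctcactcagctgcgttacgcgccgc
HAS3: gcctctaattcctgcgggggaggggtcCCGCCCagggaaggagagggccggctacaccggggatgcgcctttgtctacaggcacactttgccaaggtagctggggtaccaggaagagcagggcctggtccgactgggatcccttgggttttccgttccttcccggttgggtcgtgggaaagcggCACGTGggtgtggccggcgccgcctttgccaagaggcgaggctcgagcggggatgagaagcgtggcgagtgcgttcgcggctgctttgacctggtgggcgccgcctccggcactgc

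The stretch between COL4A6 and COL4A5 held CCAAT on both strands and no GGGCGG, while that of COL4A1 and COL4A2 held 1 CCAAT and 1 GGGCGG. PLOD2 had 2 separate matches to ACGTG, on opposite strands, 1 to CCAAT and 1 to GGGCGG. In HAS3 both ACGTG matches lay in 1 palindrome, CACGTG, so they overlap. P4HA2 had CCAAT on the reverse strand at 2 places and neither of the others. Windows were at hand for 35 of the 48 members, 47 windows in all. ACGTG was found in 19.1% of these against 21.4% of all 35116 windows, CCAAT in 27.7% against 34.6%, and GGGCGG in 74.5% against 45.0%. A match describes the letters and is not a binding site.

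Levels below are normalized log2 intensities in a fixed order: high density in control medium, high density with bicarbonate, low density in control medium, low density with bicarbonate. A gene counted as measured in a comparison if its brightest detected probe was detected on both arrays compared. The threshold of 1.5-fold is 0.585 on the log2 scale. As the only spread at hand, the log2 differences of 2 probes of the same gene, over 1738 genes with such probes, departed from each other with a standard deviation of 0.502 for density in control medium, 0.356 for bicarbonate at high density and 0.407 for the other comparisons. Both probes of a gene read the same RNA on the same arrays, so this spread does not measure how far cultures of 1 group would differ. Each array enters 2 comparisons, so a comparison shares an array with others and an error on it would move them together.

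At high against low density in control medium, the collagen IV chains COL4A5 and COL4A6, the laminin chains LAMA5 and LAMC1, the collagen hydroxylases P4HA2 and PLOD1 and the matrix glycoprotein SPARC lay higher by 1.5-fold or more. The hyaluronan synthase HAS3, the collagen chaperone FKBP10 and the cartilage collagen COL2A1 were lower. These were 7 of 42 measured members higher, where 12.0% of 8936 measured genes were, and 3 lower, where 11.9% of genes were. At 2-fold the count was 3 members, SPARC, FKBP10 and HAS3, against 6.61% of all genes. The median log2 difference of the members was 0.17, with 28 of 42 above 0, against 0.01 and 50.5% over all genes.

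With bicarbonate at high density, chains of collagen I (COL1A1), collagen V (COL5A1) and collagen VI (COL6A1, COL6A2), HAS3, FKBP10 and P4HA2 were at least 1.5-fold higher than in the high-density control, and SPARC was lower. That is 7 of 42 measured members higher, where 4.49% of 9188 genes were, and 1 lower, where 4.47% were. HAS3 and FKBP10 were 2-fold apart, against 1.12% of genes. The members' median difference was 0.11, with 27 of 42 above 0, against 0.02 and 52.08% over all genes. Where arrays were set to equal medians in place of equal quantiles, the median of all genes moved to -0.14 and that of the members to -0.02, and 5 members were higher and 3 lower.

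With bicarbonate at low density few members differed. FKBP10 and COL1A2 were at least 1.5-fold lower, 2 of 39 measured members against 1.48% of 8973 genes, and 0 were higher, against 2.24%. Only FKBP10 was 2-fold apart, against 0.189% of genes. The members' median was -0.10, with 16 of 39 above 0, against 0.03 and 53.87% over all genes.

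High against low density with bicarbonate gave the most members apart. Both chains of collagen I, COL6A1 and COL6A2, PLOD2, LAMA5, LAMB1, ITGA3 and FKBP10 lay higher at high density by 1.5-fold or more, 9 of 39 measured members against 11.5% of 8836 genes. HAS3, ITGB5 and COL5A2 were lower, 3 of 39 against 12.0% of genes. At 2-fold 6 members stood apart, COL1A1, COL1A2, COL6A1, COL6A2 and PLOD2 higher and HAS3 lower, against 6.36% of genes. The members' median was 0.27, with 26 of 39 above 0, against -0.03 and 47.58% over all genes.

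The 2 density comparisons share no array. Of the 38 members detected on all 4 arrays, LAMA5 was the only one at least 1.5-fold higher at high density in both media, against 4.93% of 8554 genes, and HAS3 the only one lower in both, against 5.17%. The 2 density differences had the same sign for 25 of 38 members (65.79%) and for 67.71% of all genes. Across the 38 members their Pearson correlation was 0.41, against 0.58 across all genes, where the points share the 4 arrays and their normalization. The 2 bicarbonate comparisons, which share no array either, had the same sign for 15 of 38 members (39.47%) and for 40.81% of genes, with correlations of -0.33 and -0.24. The sign of both pairs was thus shared about as often among the members as among all genes.

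**Figure D2:**
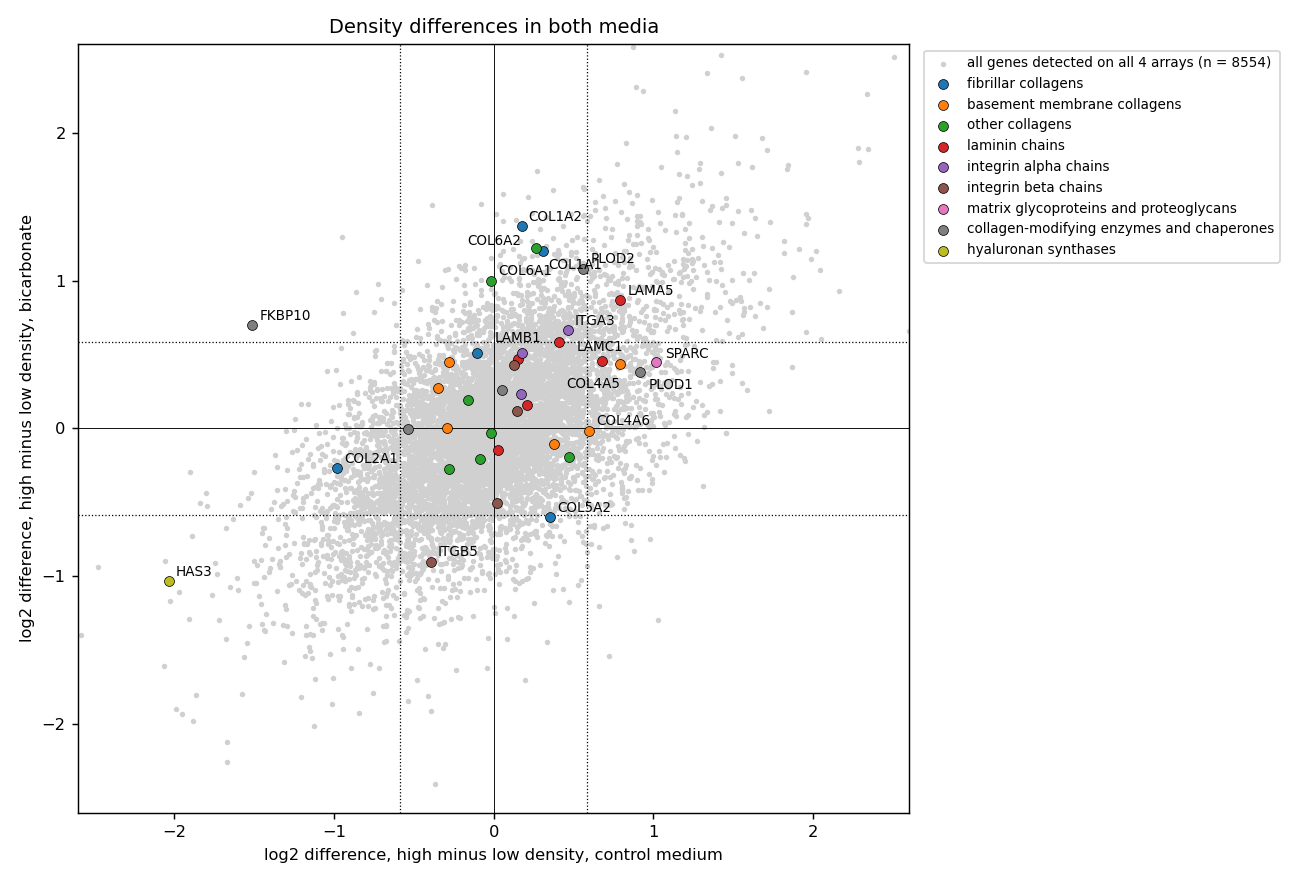
Log2 difference between high and low density in control medium (x axis) and with bicarbonate (y axis) for genes detected on all 4 arrays, members coloured by role, all others grey, dotted lines at 1.5-fold. LAMA5 (0.79 and 0.87) and HAS3 (-2.03 and -1.03) are past the lines in both media, and 6 grey genes lie outside the axes, which end at 2.6 in each direction.

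**Figure D3:**
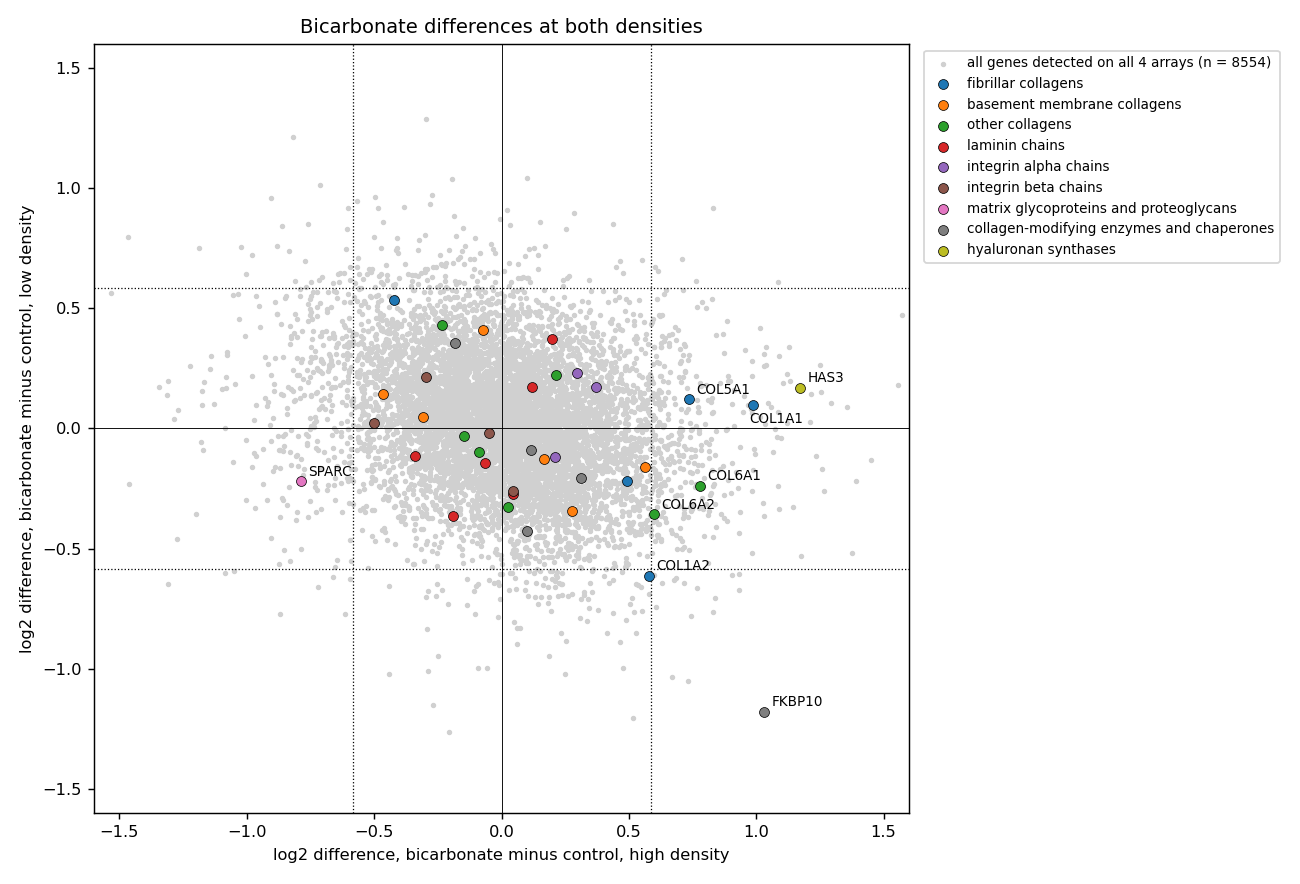
Log2 difference between bicarbonate and control medium at high density (x axis) and at low density (y axis) for genes detected on all 4 arrays, members coloured by role, all others grey, dotted lines at 1.5-fold. FKBP10 lies at 1.03 and -1.18, most other labelled members lie near 0 on the y axis, and 7 grey genes lie outside the axes, which end at 1.6 in each direction.

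Of the fibrillar collagens, 7 of 11 were detected. COL1A1, the main chain of collagen I of skin and bone, had levels of 8.36, 9.35, 8.05 and 8.15. The high-density bicarbonate array stood above the other arrays, which lay within 0.31 of each other. It was 1.98-fold above the high-density control (log2 difference 0.99) and 2.29-fold above low density with bicarbonate (1.20). COL1A2, its partner chain, stood at 9.06, 9.64, 8.89 and 8.28. It too was highest at high density with bicarbonate, but differed there from the control by 0.58, just under the threshold at 1.49-fold. At low density it was 1.53-fold lower with bicarbonate (-0.61), so that the density difference with bicarbonate was 2.58-fold (1.37), against 0.17 in control medium. The bicarbonate difference at low density fell under the threshold without background correction (-0.471), with the authors' log2 values (-0.575) and with the mean of detected probes (-0.438). A second probe of COL1A2 read 8.64, 9.06, 8.24 and 7.97, with the same order of arrays and differences of 0.43 and -0.26 for bicarbonate at high and low density and 1.09 for density with bicarbonate.

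Collagen V, which joins collagen I fibrils and sets their width, gave chains that did not go together. COL5A1 had 8.10, 8.84, 8.21 and 8.33 and was 1.66-fold higher with bicarbonate at high density (0.74), and 0.12 apart at low density. COL5A2 had 8.06, 7.64, 7.71 and 8.24 and was lower with bicarbonate at high density (-0.42), higher at low density (0.54), and 1.52-fold lower at high than at low density with bicarbonate (-0.60). That density difference fell under the threshold without background correction and with the authors' log2 values. COL2A1, the main collagen of cartilage, had 6.60, 7.10, 7.59 and 7.37 and was 1.98-fold lower at high density in control medium (-0.98), but -0.27 apart with bicarbonate. Its high-density control level lay close to the lowest level of any detected probe on that array, 6.41. Without background correction the COL2A1 density difference in control medium was -0.53, under the threshold. COL11A1, a chain of collagen XI that is found with collagen II, had 7.11, 7.56 and 6.59 and was not well above background at low density with bicarbonate. That made it at least 2.04-fold higher at high than at low density with bicarbonate (here and below, a bound sets the brighter level against whichever is higher on the other array, the level of the probe itself or the lowest level at which a probe was detected). COL11A2 was detected only in the high-density control, at 6.45, against 6.14, 6.28 and 6.38 on the other arrays in turn.

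Of the basement membrane collagens, 6 of 9 were detected. COL4A1 and COL4A2, which encode the collagen IV of nearly all basement membranes, kept close to 1 level. COL4A1 stood at 10.19, 10.35, 10.48 and 10.35, and COL4A2 at 7.68, 8.24, 7.95 and 7.79. Neither was 1.5-fold apart in any comparison, and the widest was COL4A2 with bicarbonate at high density, at 1.48-fold (0.56), where COL4A1 was at 0.17. Both had the same sign in all 4 comparisons, with COL4A1 at 0.00 for density with bicarbonate, where COL4A2 was at 0.45. COL4A5 and COL4A6, the minor chains whose genes are read from the X-linked stretch shown above, were both highest in the high-density control. COL4A5 read 10.56, 10.25, 9.77 and 9.82 and COL4A6 read 9.01, 8.54, 8.41 and 8.55. In control medium they were 1.73-fold and 1.51-fold higher at high density (0.79 and 0.60), and with bicarbonate 0.43 and -0.02 apart. A second, dimmer probe of COL4A5 did not repeat this, at 7.46, 7.59, 7.74 and 6.61, with -0.28 for density in control medium and -1.13 for bicarbonate at low density. For density in control medium COL4A6 fell under the threshold without background correction (0.47), with median scaling (0.48) and with the authors' log2 values (0.56). COL18A1, the source of the fragment endostatin, had 10.46, 10.74, 10.81 and 10.47, and COL7A1, the collagen of anchoring fibrils, 7.24, 7.17, 6.87 and 7.28, each within 1.5-fold on all arrays.

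Of the 25 other collagens on the platform 10 were detected. Collagen VI, a beaded microfibril around cells, stood out among them. COL6A1 had 10.02, 10.80, 10.04 and 9.80, so that the high-density bicarbonate array alone was high. It was 1.72-fold above the high-density control (0.78) and 2.0-fold above low density with bicarbonate (a log2 difference of 1.0), while the 2 controls differed by -0.02. COL6A2 had 8.18, 8.77, 7.91 and 7.56 and was 1.51-fold higher with bicarbonate at high density (0.60) and 2.33-fold higher at high density with bicarbonate (1.22). Of 2 other COL6A2 probes, each detected on only 2 arrays, 1 gave 1.05 and 1.03 for these differences and 1 gave -0.20 and -0.42. With arrays set to equal medians the bicarbonate differences at high density were 0.53 for COL6A1 and 0.49 for COL6A2, both under the threshold, and COL6A2 was also under it without background correction, with the authors' log2 values and with the mean of detected probes. COL6A3 had 7.19, 7.24 and 6.74 and was not well above background at low density with bicarbonate, which made it at least 1.63-fold higher at high density there, while the bicarbonate difference at high density was 0.05.

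COL23A1, a transmembrane collagen, had 7.33, 7.36 and 6.78 and was likewise at least 1.77-fold higher at high than at low density with bicarbonate. COL26A1 had 9.27, 9.19, 9.56 and 9.46, and COL9A1, a collagen of cartilage fibril surfaces, 8.73, 8.49, 8.26 and 8.69. These 2, with COL16A1, COL8A2 and COL9A3, stayed within 1.5-fold on all 4 arrays. COL9A2 was detected only at high density with bicarbonate, at 6.69, against 6.09, 6.36 and 6.26 on the other arrays in turn. Low density with bicarbonate was thus the array on which COL11A1, COL6A3, COL23A1 and P4HA2 were not well above background. No other member detected on the remaining 3 arrays was missing there. How many of all genes were missing on that array alone was not counted. It had the fewest probes detected (14128), and its lowest detected level was 6.53, against 6.41, 6.31 and 6.38 on the other arrays in turn. COL11A1 read 6.50 there.

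**Figure D4:**
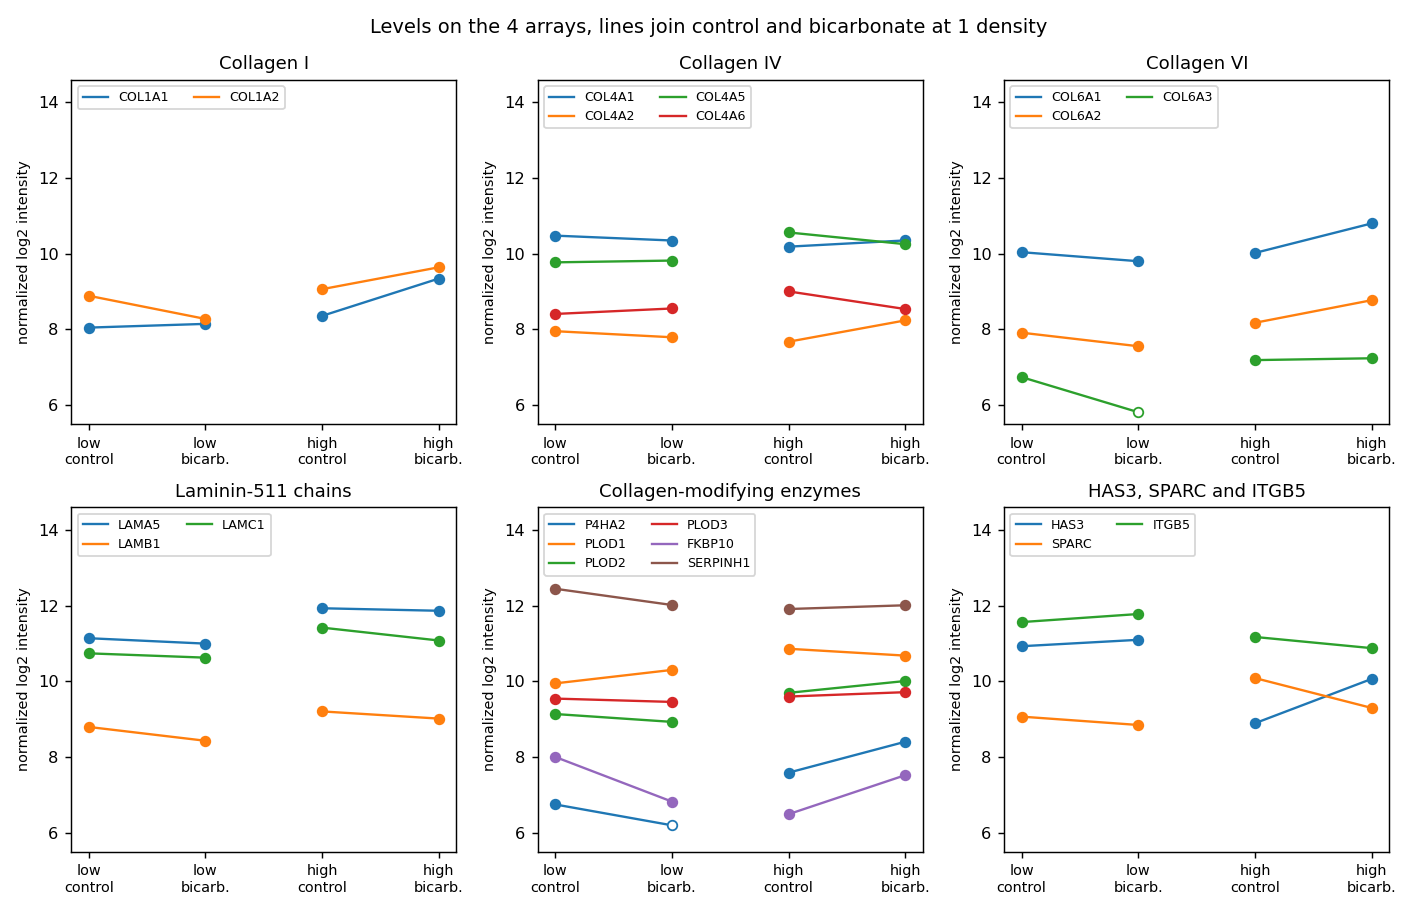
Normalized log2 intensity (y axis) on the 4 arrays (x axis, named by density and medium) for chains of the same collagen or laminin and for enzymes, with lines joining control and bicarbonate at 1 density and open points where the probe was not detected. COL1A1, COL1A2, COL6A1 and COL6A2 are highest at high density with bicarbonate. LAMA5 and LAMC1 are higher on both high-density arrays than on both low-density arrays, an order that was not counted over all genes.

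The genes that modify and fold collagen were all detected, 6 of 6. P4HA2, a subunit of the prolyl hydroxylase whose product stabilises the triple helix, had 7.59, 8.41 and 6.75 and was not well above background at low density with bicarbonate (6.20). It was 1.79-fold higher at high density in control medium (0.84), 1.76-fold higher with bicarbonate at high density (0.82) and at least 3.67-fold higher at high than at low density with bicarbonate. Without background correction the first 2 of these differences were 0.47 and 0.56, both under the threshold. A second P4HA2 probe had 6.83, 7.59, 6.03 and 5.68 and was detected on 2 arrays, those of high density. It gave 0.76 for bicarbonate at high density. Its 0.79 for density in control medium rests on a low-density level not well above background. PLOD2, the lysyl hydroxylase of the collagen telopeptides, had 9.70, 10.01, 9.14 and 8.93 and was 2.11-fold higher at high density with bicarbonate (1.08), against 1.47-fold in control medium (0.56). Its second probe gave 1.13 and 0.68. Both high-density arrays stood above both low-density arrays for P4HA2, PLOD2 and PLOD1, with P4HA2 not well above background at low density with bicarbonate. How many of all genes order the arrays in this way was not counted. That holds also for the laminin chains, ITGB5 and HAS3 below.

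PLOD1, a lysyl hydroxylase of the helix, had 10.86, 10.68, 9.95 and 10.31. It was 1.89-fold higher at high density in control medium (0.91) and 1.3-fold with bicarbonate (0.38). PLOD3, which also attaches sugars to hydroxylysine, had 9.60, 9.72, 9.55 and 9.46, all within 1.5-fold. SERPINH1, the collagen chaperone HSP47, had 11.92, 12.01, 12.45 and 12.02 and was highest in the low-density control, by 1.45-fold over the high-density control (-0.54). FKBP10, a prolyl isomerase that works with PLOD2 and SERPINH1 on collagen, had 6.49, 7.52, 8.01 and 6.83. It was 2.85-fold lower at high density in control medium (-1.51), 2.04-fold higher with bicarbonate at high density (1.03) and 2.27-fold lower with bicarbonate at low density (-1.18). With bicarbonate the density difference was 1.62-fold in the other direction (0.70). FKBP10 had 1 probe, and the high-density control level lay close to the lowest level of any detected probe on that array, 6.41. The level at low density with bicarbonate was likewise close to the lowest detected level on its array, 6.53.

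Of the laminin chains under the rule, 7 of 11 were detected, LAMB2P1 included, at 6.48 and in the high-density control only. LAMA5, LAMB1 and LAMC1 encode the alpha, beta and gamma chains of a laminin that pluripotent cells are known to make and to attach to. LAMA5 had 11.94, 11.87, 11.14 and 11.0, and it was 1.73-fold higher at high density in control medium (0.79) and 1.83-fold with bicarbonate (0.87). Bicarbonate and control arrays of LAMA5 differed by -0.07 at high and -0.14 at low density. LAMC1 had 11.42, 11.08, 10.74 and 10.63 and was 1.6-fold higher in control medium (0.68) and 1.37-fold with bicarbonate (0.45). LAMB1 had 9.21, 9.02, 8.80 and 8.43, with 1.33-fold in control medium (0.41) and 1.5-fold with bicarbonate (0.59), the latter just past the threshold. That difference fell under the threshold without background correction, with median scaling, with the authors' log2 values and with the mean of detected probes. The second LAMB1 probe gave 0.24 in control medium and -0.11 with bicarbonate.

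For these 3 chains both high-density arrays read above both low-density arrays on the brightest probe. LAMA1, an alpha chain of early embryonic basement membranes, had 9.51, 9.55, 9.36 and 9.09, LAMB2 had 8.53, 8.65, 8.32 and 8.49, and LAMC3 had 9.01, 9.20, 8.98 and 9.35. None of these 3 was 1.5-fold apart. On their brightest probes the 6 measured laminin chains all lay above 0 for density in control medium. Their median was 0.31 and the lowest was LAMC3 at 0.03. With bicarbonate 5 of 6 did so, with a median of 0.46. Over all genes 50.5% and 47.58% lay above 0 in these comparisons. A second LAMA1 probe, detected on 3 arrays, gave -0.16 in control medium and 0.87 with bicarbonate. For the bicarbonate comparisons the medians of the laminin chains were -0.01 at high and -0.13 at low density.

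Integrin alpha chains were detected for 5 of 12 genes. ITGA6, a chain of the laminin receptors, had 8.55, 8.84, 8.38 and 8.61, and ITGA5, a chain of the fibronectin receptor, 8.75, 8.96, 8.57 and 8.45, each within 1.5-fold on all arrays. ITGA3, another laminin-binding chain, had 7.35, 7.73, 6.89 and 7.06 and was 1.58-fold higher at high density with bicarbonate (0.66) and 1.38-fold in control medium (0.46). ITGA7, a laminin-binding chain of muscle, had 7.01, 6.85 and 6.55 on the last 3 arrays and was not well above background in the high-density control, which made it at least 1.51-fold higher with bicarbonate at high density. ITGA2, a chain of a collagen receptor, was detected only at high density with bicarbonate, at 6.59, against 6.28, 6.30 and 6.45 on the other arrays in turn.

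Among 4 detected symbols of 9 in the beta group, ITGB1, the beta chain that pairs with all of these alpha chains, had 12.58, 12.63, 12.46 and 12.20, and differed by at most 1.35-fold, for density with bicarbonate (0.43). A second, dimmer ITGB1 probe gave 0.95 there and -0.90 for bicarbonate at low density. ITGB5, which pairs with the alpha V chain in a vitronectin receptor, had 11.18, 10.88, 11.57 and 11.78, with both low-density arrays above both high-density arrays. It was 1.87-fold lower at high density with bicarbonate (-0.90) and 1.31-fold lower in control medium (-0.39). Of 2 other ITGB5 probes, 1 gave -0.91 and -0.19 and 1 gave -1.04 and -1.42, so all 3 probes were lower at high density in both media, by differing amounts in control medium. ITGB2, the beta chain of leukocytes, had 7.39, 7.34, 7.25 and 7.23, and the centromere protein ITGB3BP 8.73, 8.23, 8.71 and 8.73.

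SPARC, a secreted glycoprotein that binds collagen and calcium, had 10.09, 9.30, 9.07 and 8.85. The high-density control stood above the other arrays, 2.03-fold over the low-density control (1.02) and 1.73-fold over high density with bicarbonate (a bicarbonate difference of -0.79), while the density difference with bicarbonate was 1.37-fold (0.45). NID1, which links laminin to collagen IV, was detected only at high density with bicarbonate, at 6.72, against 6.17, 6.34 and 5.69 on the other arrays in turn. HAS3, an enzyme of the plasma membrane that makes hyaluronan, had 8.90, 10.07, 10.93 and 11.10. It was 4.10-fold lower at high density in control medium (-2.03) and 2.04-fold lower with bicarbonate (-1.03). Bicarbonate gave 2.25-fold more at high density (1.17) and 1.12-fold at low density (0.17), and both low-density arrays stood above both high-density arrays. HAS3 had 1 detected probe of 2 on the platform.

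Over the 38 members detected on all arrays, 14 were highest at high density with bicarbonate (36.84%, against 24.94% of all genes). Low density with bicarbonate was the lowest array for 14 members (36.84%, against 24.32%). The high-density control was highest for 9 (23.68%, against 25.81%), among them LAMA5, LAMC1, PLOD1, COL4A5, COL4A6 and SPARC. All 4 arrays lay within 1.5-fold for 19 of these 38 members, against 56.62% of genes. Values close to the 1.5-fold line and past it were those of LAMB1 (1.501), COL4A6 (1.51), COL6A2 (1.51), COL5A2 (1.52) and COL1A2 (1.53, bicarbonate at low density). Those just under it were COL1A2 (1.49, bicarbonate at high density), COL4A2 (1.48) and PLOD2 (1.47).

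Further genes of the same pathways were counted from lists of textbook members, to be read against the shares of all genes at least 1.5-fold higher and lower, which were 12.0% and 11.9% for density in control medium, 4.49% and 4.47% for bicarbonate at high density, 2.24% and 1.48% at low density, and 11.5% and 12.0% for density with bicarbonate. Of 14 measured genes of collagen processing outside the module, 2 were at least 1.5-fold higher and 1 lower at high density in control medium, 2 and 1 of 13 with bicarbonate at high density, 0 and 1 of 14 with bicarbonate at low density, and 3 and 1 of 13 for density with bicarbonate. P3H2, a prolyl 3-hydroxylase of collagen, read 9.71, 10.79, 8.94 and 9.0 and was 0.77, 1.08, 0.07 and 1.79 apart in these 4 comparisons in turn. LOXL3, a lysyl oxidase, had -0.98, 0.72, 0.07 and -0.32. CRTAP, a partner of the prolyl 3-hydroxylases, was at -0.90 for bicarbonate at low density. Like COL1A1 and COL6A1, P3H2 was highest at high density with bicarbonate.

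Of 25 other matrix components 6 were higher and 1 lower at high density in control medium, with a median of 0.22 against 0.01 over all genes, 0 and 1 of 26 with bicarbonate at high density, 1 and 0 of 21 with bicarbonate at low density, and 8 and 2 of 21 for density with bicarbonate, with a median of 0.30 against -0.03. CCN2, a matricellular protein, had 12.67, 11.70, 10.79 and 10.68 and differed by 1.87 between densities in control medium, by -0.96 with bicarbonate at high density and by 1.02 between densities with bicarbonate. CCN1, of the same family, was at 1.13 and 1.44 for the density differences, and THBS1, thrombospondin, at 1.17 in control medium. For bicarbonate at low density THBS2 was at 0.73 and EFEMP1, a fibulin, at -0.52. CCN2 was thus highest in the high-density control, as SPARC was.

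Matrix proteases and their inhibitors had 3 higher and 1 lower of 13 for density in control medium, 0 and 1 of 15 for bicarbonate at high density (ADAM9 at -0.80), 0 and 0 of 16 at low density, and 3 and 0 of 13 for density with bicarbonate. The complex that links integrins to actin had 1 and 1 of 25, 0 and 0 of 24, 1 and 0 of 26 (RSU1 at 0.64), and 2 and 2 of 24 in these comparisons. Other matrix receptors and hyaluronan genes had 1 and 2 of 17, 2 and 1 of 17 (GPC3, a glypican, at 0.80), 0 and 0 of 18, and 4 and 3 of 17. These counts are to be read against the same shares of all genes.

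Members with 2 probes detected on all 4 arrays were 7, namely COL1A2, COL4A5, ITGB1, ITGB2, ITGB5, LAMB1 and PLOD2. Their 2 brightest probes had the same sign for 5 of 7 in the density comparison in control medium and for 6 of 7 in each of the others. Over all 1738 genes with such probes the share was 67.09%, 63.12%, 54.03% and 72.9% for density in control medium, bicarbonate at high and at low density, and density with bicarbonate. Most members at least 1.5-fold apart, COL1A1, COL5A1, COL6A1, FKBP10, HAS3, LAMA5, LAMC1, PLOD1 and SPARC among them, had 1 detected probe and so no such comparison.

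**Figure D5:**
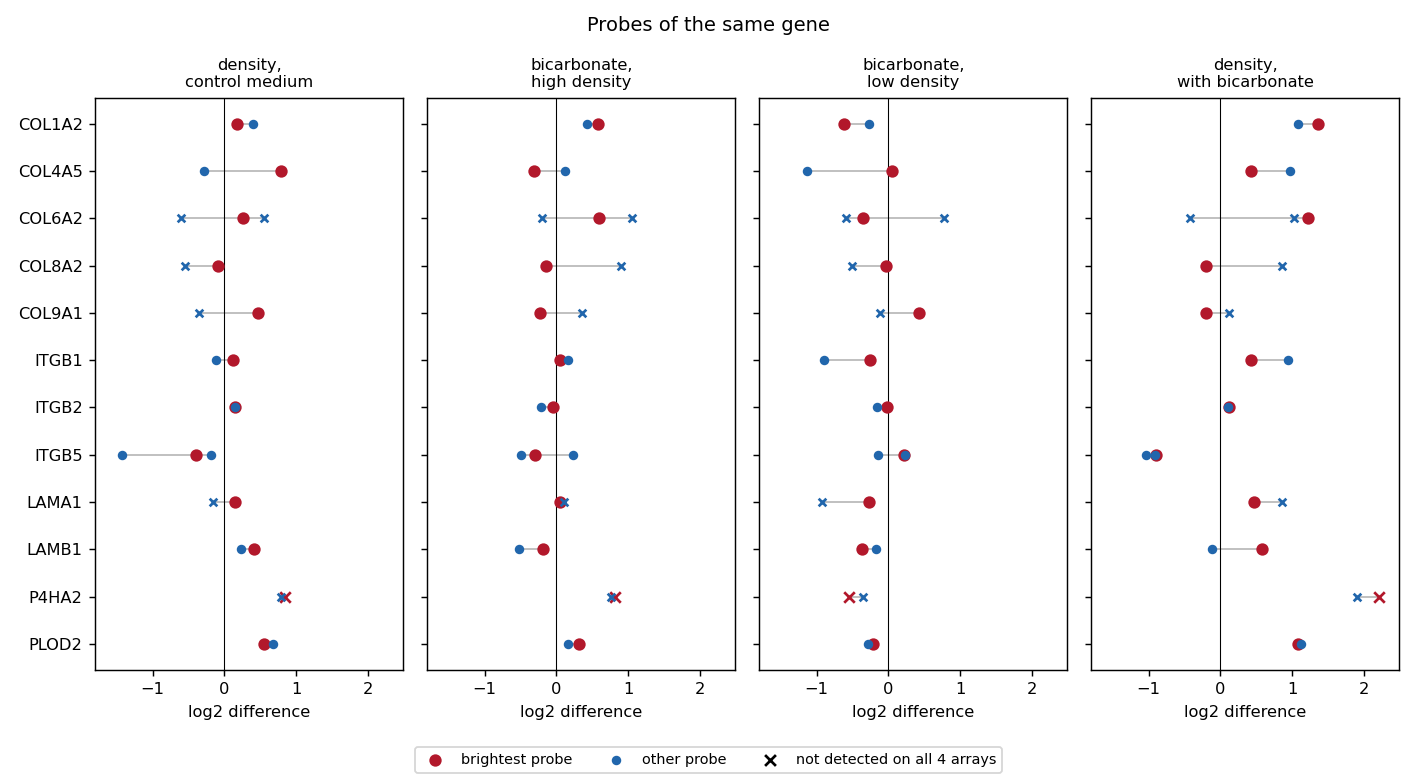
Log2 difference (x axis) on every detected probe of the members with more than 1 (y axis), in the 4 comparisons, with the brightest probe in red, other probes in blue and crosses for probes not detected on all 4 arrays. PLOD2 (0.56 and 0.68 for density in control medium, 1.08 and 1.13 with bicarbonate) has probes close together, and COL4A5 (0.79 and -0.28 in control medium) has probes on either side of 0.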

How the data were processed

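RNA of 4 H9 cultures, 1 per group, was measured on Illumina arrays, and groups were taken from the sample titles. The deposited table holds 1 intensity per probe and array, not normalized, and a deposited detection p-value, whose steps fit 770 negative-control probes. The authors also deposited log2 values of the same arrays, used here as an alternative. Neither the scanner software nor the steps behind the log2 values is given in the sources used here, and the number of arrays limits the precision.

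The function neqc (limma 3.58.1, R 4.3.3) corrected the background and set the quantiles of the arrays equal, with an offset of 16 and negative controls inferred from the detection p-values. A change common to all genes is thereby removed. Later steps used Python 3.11.15, numpy 2.4.6, pandas 2.3.3 and matplotlib 3.10.9. The platform annotation gave 1 symbol for 30098 of 47293 probes, several for 8 and none for 17187, and 30059 of the former matched a current gene table. Of the probes of a gene detected on 1 array or more, that with the highest mean log2 level stood for the gene. The normalization was also run on simulated data, with changes planted only in brighter probes detected on all 4 arrays. Genes near background were therefore not covered by it.

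Named were members at least 1.5-fold apart or with such a fold bound, the 3 members of each role group with the highest mean level, and the 4 genes of the further lists farthest apart in each of the first 3 comparisons. COL4A2, COL7A1, COL11A2, COL9A2, LAMB2, LAMC3, LAMB2P1, ITGA2 and ITGB2, also given with values, fall outside this rule and were added after their values were seen. Other detected probes were given for members at least 2-fold apart, and those of COL4A5, ITGB1, ITGB5, LAMA1 and LAMB1 were added after their values were seen. Members and lists were chosen with earlier results of these data known. The alternatives were no background correction, median scaling, the authors' log2 values, a detection p-value under 0.05, the mean of detected probes, a mean log2 level of at least 8 and, added after seeing the data, leaving out ITGB3BP and LAMB2P1.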

Additional observations from a re-analysis of the deposited data

Results flagged for a closer look

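FKBP10 was more than 1.5-fold higher with bicarbonate at high density (1.03) and more than 1.5-fold lower with bicarbonate at low density (-1.18), on the log2 scale. The 2 bicarbonate differences thus lay 2.21 apart in opposite directions. Without background correction they were 0.54, which is under 1.5-fold, and -0.70. This rests on 1 array per group and 1 probe, and the difference was not tested.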

How the results depend on the processing

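No paired analysis was possible because each group had 1 array, and for the same reason no replicate could be left out. The count of members at least 1.5-fold apart for density in control medium (10) ran from 7 to 11 over the alternatives, and that for density with bicarbonate (12) from 8 to 17. For bicarbonate at high density the count of 8 became 4 without background correction, and lay between 6 and 10 otherwise. For bicarbonate at low density the count of 2 became 1 without background correction, with the authors' log2 values and with a mean log2 level of at least 8, and 5 with a detection p-value under 0.05. The causes were not tested, except that the last 2 settings change which genes are measured. All 10, 8, 2 and 12 members kept their direction without background correction, with median scaling, with the authors' log2 values and with the mean of detected probes. Without background correction 7, 4, 1 and 8 of them stayed past 1.5-fold. Those that fell under it were COL2A1, COL4A6 and P4HA2 for density in control medium. For bicarbonate they were COL5A1, COL6A2, FKBP10 and P4HA2 at high density and COL1A2 at low density. For density with bicarbonate they were COL5A2, FKBP10, ITGA3 and LAMB1. Median scaling moved the median of all genes to -0.058, -0.14, -0.109 and -0.107 in the 4 comparisons and that of the members to 0.076, -0.017, -0.215 and 0.19. With the mean of detected probes COL4A5 came to 0.26 for density in control medium and to -0.54 for bicarbonate at low density, and COL6A2 came from 1.22 to 0.61 for density with bicarbonate. Without background correction FKBP10 came to -0.86 for density in control medium, 0.54 for bicarbonate at high density, under the threshold, and -0.70 at low density. Members not well above background on 1 or more arrays have only a bound there.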
